A study of Mus musculus with 6 samples.

Results

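The Ikaros family holds 5 zinc finger transcription factors, Ikzf1 (Ikaros), Ikzf2 (Helios), Ikzf3 (Aiolos), Ikzf4 (Eos) and Ikzf5 (Pegasus). Accessible DNA at these genes was taken from ATAC-seq peak lists of 6 libraries of mouse CD8+ T cells, where a transposase cuts open chromatin and peaks mark where it cut most. A peak belonged to a member if its summit had that gene as the nearest protein-coding gene body of the RefSeq mouse annotation, inside it or within 100 kb. This gave 679 of the 573921 peaks of the 6 lists. Peaks that overlapped across libraries were merged into regions, and 147 of 134174 merged regions were assigned to the family by the summit of their strongest peak.

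The T cells came from mouse spleen, were activated with antibodies against CD3 and CD28, and shared medium for 48 h with PD-1-resistant lung adenocarcinoma cells held behind a membrane. In the Res-shFabp7 group (3 libraries) the tumour cells carried a short hairpin RNA against Fabp7, a fatty acid binding protein, and in the Res-ctrl group (3 libraries) they were the control of the same resistant cells. The labels used here state no strain, age or genotype for the mice, and no library of the tumour cells was analysed here, so the knockdown was not checked. They call the libraries biological replicates without naming animals or cultures, and the p-values here take each library as 1 replicate. Res-shFabp7 lists held 100243 to 105796 peaks and Res-ctrl lists 82153 to 96310. The most frequent background pileup, a relative measure of depth, was 1.03, 0.868 and 0.959 in Res-shFabp7 replicates 1 to 3 and 0.709, 0.608 and 1.01 in Res-ctrl replicates 1 to 3. Res-ctrl replicates 1 and 2 were thus the shallowest, and a peak missing from them does not show closed chromatin. All 12 CD8 T cell markers, Cd3e, Cd8a and Cd8b1 among them, had a region in all 6 libraries. Their summed share was 2.25 to 2.51 per 1000 peaks in Res-shFabp7 libraries and 2.63 to 2.68 in Res-ctrl libraries, and that of 8 markers of CD4 and regulatory T cells was 1.01 to 1.12 in Res-shFabp7 libraries and 1.14 to 1.25 in Res-ctrl libraries. Neither pair of ranges overlapped. Among single genes with a peak the groups did not overlap in 24.5%, lower with Res-shFabp7 in 17.1% and higher in 7.37%. No such share was computed for lists of genes. The part of the T cell marker differences in the family's values was not tested. Of 10 B cell markers 9 had a peak in some library. Their summed share was 0.293 to 0.335 per 1000 peaks in Res-shFabp7 libraries and 0.207 to 0.249 in Res-ctrl libraries. These B cell ranges did not overlap either, and Res-shFabp7 was the higher. The same share was 0.435 to 0.469 (Res-shFabp7) and 0.446 to 0.495 (Res-ctrl) for 8 NK cell markers. It was 0.296 to 0.379 (Res-shFabp7) and 0.301 to 0.318 (Res-ctrl) for 10 myeloid markers. For 9 epithelial markers it was 0.246 to 0.259 (Res-shFabp7) and 0.208 to 0.256 (Res-ctrl). Of these 9 markers, 6 had a peak and 4 had a region in all 6 libraries, while Krt8, Krt19 and Sftpc had no peak.

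Ikaros family proteins bind DNA through a group of zinc fingers near the amino terminus and pair with one another through a further pair of fingers at the carboxyl terminus. Ikaros binds the core GGGAA and works with the Mi-2/NuRD remodelling complex, and with Aiolos it sets thresholds of lymphocyte activation. Helios and Eos are best known from regulatory T cells, Aiolos from B cells and effector lymphocytes, and Pegasus is the most divergent and most widely expressed member. In human cells, Ikaros and Aiolos are also proteins that thalidomide analogues direct to the cereblon ubiquitin ligase for degradation.

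Promoter sequence from RefSeq (GRCm38.p6, the assembly of mm10) was on hand for 2 of the 5 genes, as the 250 bases before a transcription start to 50 after it. The 3 windows are shown because each lay in a region open in all 6 libraries and because the windows of Ikzf1 differ in base composition. Capitals mark GGGAA on either strand (TTCCC on the strand shown).
Ikzf1 upstream start, chr11:11685675-11685974, plus strand: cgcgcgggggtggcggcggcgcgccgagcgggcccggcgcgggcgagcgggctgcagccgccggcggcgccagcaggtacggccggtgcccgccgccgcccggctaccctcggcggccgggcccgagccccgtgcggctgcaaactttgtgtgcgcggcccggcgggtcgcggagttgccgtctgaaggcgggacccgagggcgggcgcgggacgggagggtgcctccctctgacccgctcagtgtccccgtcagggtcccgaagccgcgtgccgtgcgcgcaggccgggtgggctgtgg
Ikzf1 downstream start, chr11:11689927-11690226, plus strand: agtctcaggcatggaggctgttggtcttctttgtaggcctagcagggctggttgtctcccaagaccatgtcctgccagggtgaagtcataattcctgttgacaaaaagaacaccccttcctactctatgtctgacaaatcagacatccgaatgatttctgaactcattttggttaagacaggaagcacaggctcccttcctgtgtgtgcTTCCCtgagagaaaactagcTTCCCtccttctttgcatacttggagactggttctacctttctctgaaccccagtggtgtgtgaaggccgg
Ikzf5, chr7:131410429-131410728, minus strand: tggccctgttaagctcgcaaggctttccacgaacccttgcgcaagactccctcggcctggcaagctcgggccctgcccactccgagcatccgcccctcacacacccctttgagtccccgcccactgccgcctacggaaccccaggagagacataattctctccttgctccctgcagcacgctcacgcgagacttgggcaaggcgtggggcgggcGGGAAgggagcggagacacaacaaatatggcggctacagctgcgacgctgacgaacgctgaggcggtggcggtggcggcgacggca
The upstream Ikzf1 window had 81.3% G and C, 52 CpG dinucleotides and an observed over expected CpG ratio of 1.06, and it held 0 GGGAA. The downstream window had 49.0% G and C, 2 CpG dinucleotides, a ratio of 0.111 and 2 GGGAA. The Ikzf5 window had 65.7% G and C, a ratio of 0.840 and 1 GGGAA. Over all 32851 RefSeq promoter windows of this length the median ratio was 0.384, 62.7% held GGGAA on either strand and 25.6% held the longer TGGGAA, which contains it. None of the 3 windows held TGGGAA. These matches describe the letters only.

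Open chromatin was concentrated at Ikzf1. Of the 147 regions, 71 belonged to Ikzf1 (chromosome 11, 11684962 to 11772930), 38 to Ikzf2 (chromosome 1, 69531207 to 69687351), 30 to Ikzf3 (chromosome 11, 98464610 to 98546031), 7 to Ikzf4 (chromosome 10, 128630839 to 128669671) and 1 to Ikzf5 (chromosome 7, 131388649 to 131410518). A peak was present in all 6 libraries in 71 of the 147 regions (48.3%), where the share over all merged regions was 42.2%. Ikzf1 had 34 such regions, which placed it at rank 42 of 21887 genes, Ikzf3 had 18 (rank 300), Ikzf2 15 (rank 447), Ikzf4 4 (rank 3591) and Ikzf5 0. These ranks are of counts, and longer genes and wider intervals between genes can hold more. Most regions lay inside gene bodies, 56 of 71 at Ikzf1, 28 of 30 at Ikzf3 and 7 of 7 at Ikzf4, while 14 of the 38 Ikzf2 regions lay outside the gene, as far as 77.0 kb from it. A further 30 of the 147 regions were found in 1 library only, against 31253 of all 134174 merged regions.

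**Figure D1:**
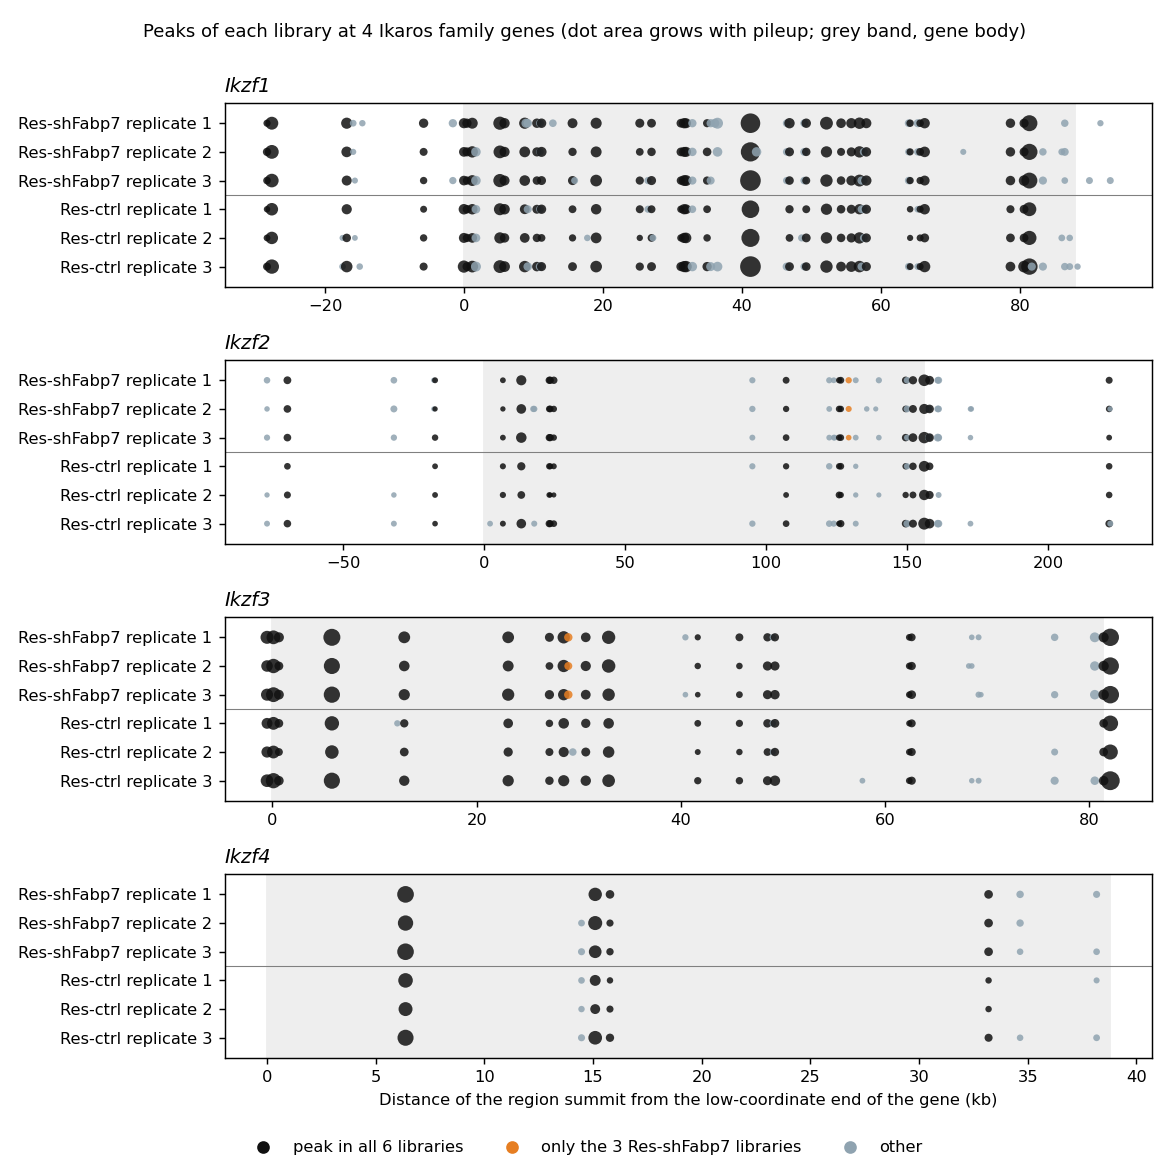
Peaks of each library at Ikzf1, Ikzf2, Ikzf3 and Ikzf4, placed by the distance in kb of the region's summit from the low-coordinate end of the gene (grey band, gene body), with 1 row per library, Res-shFabp7 above Res-ctrl, where dot area grows with the authors' pileup, black dots are regions of all 6 libraries and orange dots regions of the 3 Res-shFabp7 libraries only. The same black columns run through all rows, the orange dots are 1 region at Ikzf2 and 1 at Ikzf3, and the grey-blue dots thin out in Res-ctrl replicates 1 and 2.

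At Ikzf1, the founding member, the strongest region lay 41.2 kb into the gene (chr11:11725403-11726583). Its pileup, the authors' coverage at the summit, was 371, 356 and 423 in Res-shFabp7 replicates 1 to 3 and 281, 302 and 426 in Res-ctrl replicates 1 to 3. The groups overlapped, and 1.12% of the 56610 regions shared by all 6 lists had a greater average height. The next highest regions lay 81.4 kb into the gene (chr11:11766148-11766463), with pileups of 219, 225 and 216 with Res-shFabp7 against 149, 158 and 233 with Res-ctrl, and 27.7 kb below the gene (chr11:11657022-11657733), with 124, 148 and 143 with Res-shFabp7 against 114, 112 and 164 with Res-ctrl. In each of the 3, Res-ctrl replicate 3 was the highest of the libraries, and the shallow Res-ctrl replicates 1 and 2 had the lowest pileups.

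Both printed Ikzf1 starts were open. The region over the CpG-rich upstream start (chr11:11685589-11686427) had pileups of 79, 87 and 77 with Res-shFabp7, against 69, 55 and 95 with Res-ctrl. The region over the CpG-poor downstream start (chr11:11689923-11690628), with its summit 47 bases before that start, had 131, 120 and 131 with Res-shFabp7, against 101, 85 and 122 with Res-ctrl. At both starts the pileups of the groups overlapped only through Res-ctrl replicate 3.

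To compare heights, log2 pileups of the 56610 regions of all 6 libraries were quantile-normalised, so that every library had the same distribution, and tested with limma over all of these regions. None of the 56610 regions passed an adjusted p of 0.05 (lowest adjusted p = 0.0746), so the share called was 0%, while 17.3% had an unadjusted p under 0.05. Of the 71 family regions 0 passed and 10 (14.1%) had an unadjusted p under 0.05, 4 with the higher height in Res-shFabp7 (9.21% of all regions) and 6 with the lower (8.12% of all regions). Normalised heights of the groups did not overlap in 16 family regions (22.5%), against 21.9% of all regions. Both shares were near those of all regions. The median log2 difference, Res-shFabp7 minus Res-ctrl, was -0.04 over the family and -0.01 over all regions.

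**Figure D2:**
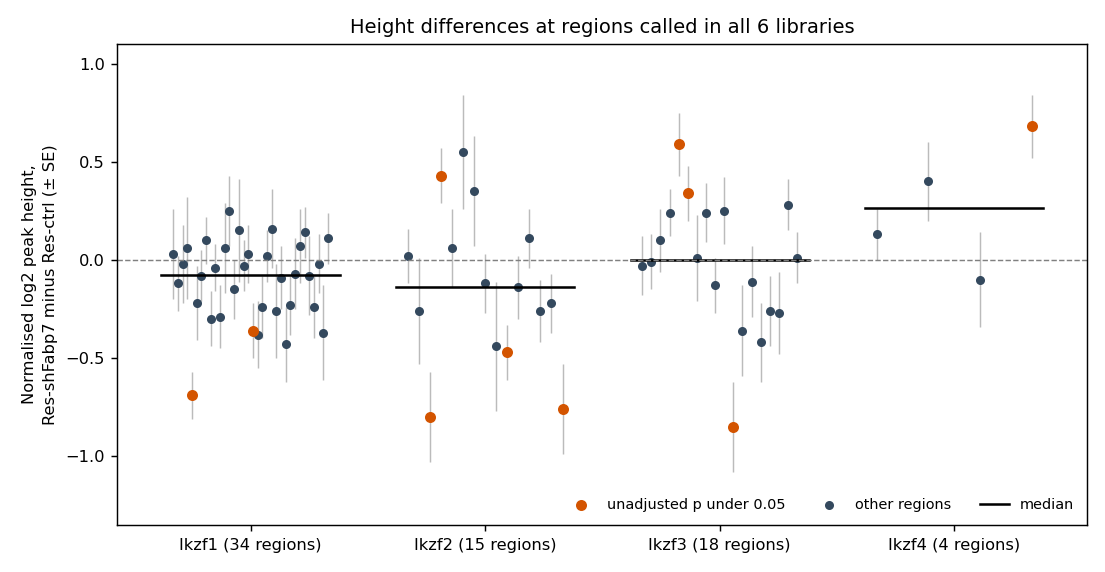
Difference in normalised log2 peak height, Res-shFabp7 minus Res-ctrl, for the 71 regions called in all 6 libraries, in order of position within each gene, where points are regions, bars are the standard error from limma, orange marks an unadjusted p under 0.05 and black lines are medians of -0.07 (Ikzf1), -0.14 (Ikzf2), 0.00 (Ikzf3) and 0.26 (Ikzf4). The 10 orange points lie on both sides of 0.

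The family region with the lowest p lay at the upstream edge of Ikzf1 (chr11:11684690-11685109), with its summit 15 bases outside the gene body, at -978 bases from the upstream start printed above. Pileups were 63, 56 and 55 in Res-shFabp7 replicates 1 to 3 and 70, 61 and 107 in Res-ctrl replicates 1 to 3. The shallow Res-ctrl libraries thus stood level with the deeper Res-shFabp7 libraries here, while median pileups over the common regions were 46, 42 and 44 in the Res-shFabp7 libraries and 32 and 29 in those Res-ctrl libraries. The authors' fold over local background was 5.50, 5.27 and 5.23 with Res-shFabp7, against 7.56, 7.43 and 9.83 with Res-ctrl, with no overlap. Normalised log2 height was 5.71 ± 0.074 with Res-shFabp7, against 6.40 ± 0.084 with Res-ctrl (SD, n = 3 each), a difference of -0.69 ± 0.12 (SE) that did not pass over all regions (limma adjusted p = 0.0822). With a mean-variance trend in limma it passed (adjusted p = 0.00343), as 4.53% of all regions did. It also passed among regions above the median height (limma adjusted p = 0.0270), where 2.03% of all tested regions did. Its adjusted p was 0.00343 to 0.466 over the alternatives. Where regions within 200 bp were merged, this region was joined to others, among them the region over the printed upstream start. The difference was then -0.20 (limma adjusted p = 0.466). The log2 difference was -0.08 ± 0.13 (SE, limma adjusted p = 0.807) in the region over the upstream start and 0.10 ± 0.12 (SE, limma adjusted p = 0.737) in that over the downstream start. Whether the difference varied between these regions was not tested.

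Further in, a region 31.7 kb into Ikzf1 (chr11:11716533-11716708) had the second lowest p of this gene. Pileups were 66, 60 and 74 with Res-shFabp7, against 65, 65 and 83 with Res-ctrl. Normalised log2 height was 5.91 ± 0.14 with Res-shFabp7, against 6.27 ± 0.15 with Res-ctrl (SD, n = 3 each), a difference of -0.36 ± 0.14 (SE; limma adjusted p = 0.250). Over the 34 common Ikzf1 regions 12 differences were above 0 and 22 below, so that 35.3% were above 0, against 48.0% of all regions. The 2 with an unadjusted p under 0.05 (5.88%, against 17.3% of all regions) were both below.

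Peak counts at Ikzf1 gave a picture that depended on list length. Res-shFabp7 libraries had 56, 52 and 52 Ikzf1 peaks and Res-ctrl libraries 47, 49 and 56. As a share of each list this was 0.515 ± 0.0222 per 1000 with Res-shFabp7, against 0.577 ± 0.0215 with Res-ctrl (SD, n = 3 each). The shares did not overlap (difference -0.0620, exact permutation, two-sided, p = 0.1, which is the lower limit of this design). Among all 16425 genes with a peak the groups did not overlap in 24.5%, with all Res-shFabp7 libraries below all Res-ctrl libraries in 17.1% and above them in 7.37%. With each list limited to its 82153 strongest peaks the counts were 49, 47 and 43 with Res-shFabp7 against 47, 49 and 51 with Res-ctrl, which overlapped (exact permutation p = 0.5).

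**Figure D3:**
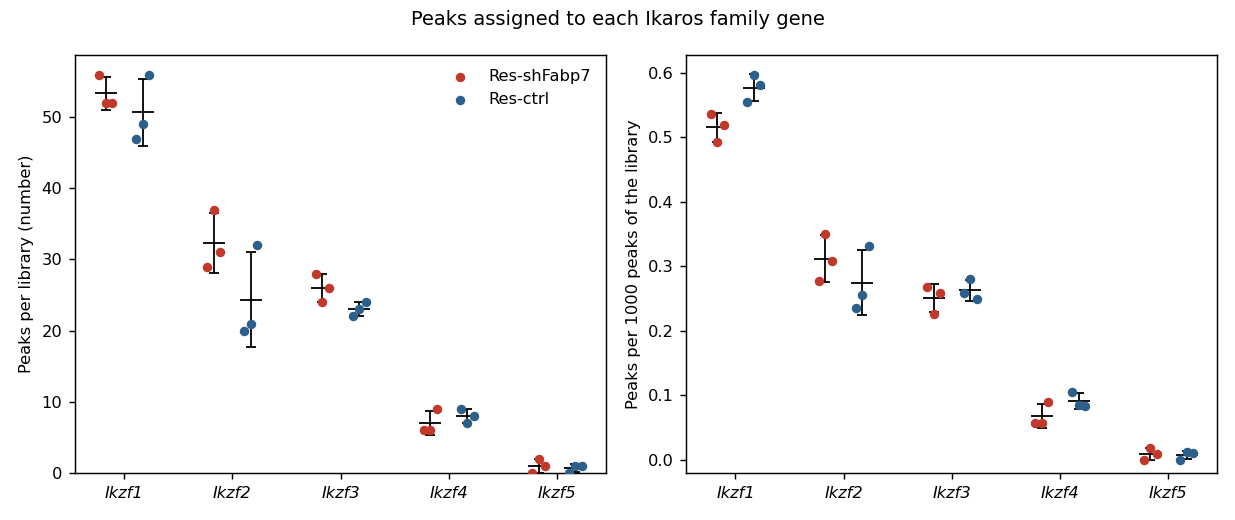
Peaks assigned to each member, as numbers per library (left) and per 1000 peaks of the library (right), where points are libraries, red for Res-shFabp7 and blue for Res-ctrl, with mean ± SD (n = 3 each). Ikzf1 has 52 to 56 peaks with Res-shFabp7, against 47 to 56 with Res-ctrl, and only its share per 1000 separates the groups.

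Ikzf2, which encodes Helios, was open but low. The median common region of Ikzf2 was exceeded in height by 84.3% of all common regions, against 37.9% for Ikzf1, 37.1% for Ikzf3 and 40.5% for Ikzf4. Its highest region covered the high-coordinate end of the gene (chr1:69687023-69688022), with pileups of 92, 62 and 88 with Res-shFabp7, against 75, 68 and 100 with Res-ctrl, a normalised log2 difference of -0.26 ± 0.16 (SE, limma adjusted p = 0.446). A region 13.2 kb into the gene (chr1:69544240-69544616) had 63, 55 and 70 with Res-shFabp7, against 34, 28 and 54 with Res-ctrl. Each Res-shFabp7 library was above each Res-ctrl library, and the normalised log2 difference was 0.43 ± 0.14 (SE; limma adjusted p = 0.183). A region 1828 bases beyond the high-coordinate end (chr1:69689117-69689297) was next in height, with 42, 39 and 39 with Res-shFabp7 against 27, 33 and 55 with Res-ctrl.

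The 2 regions of lowest p in Ikzf2 had differences of the opposite sign. The weak region 6.63 kb into the gene (chr1:69537691-69538015) had pileups of 10, 7 and 10 with Res-shFabp7, against 12, 13 and 11 with Res-ctrl. All 3 Res-ctrl libraries were higher even before normalisation, and the normalised log2 difference was -0.80 ± 0.23 (SE; limma adjusted p = 0.158). At 126.5 kb (chr1:69657532-69657745) pileups were 19, 15 and 17 with Res-shFabp7 against 18, 13 and 23 with Res-ctrl, with a difference of -0.47 ± 0.14 (SE; limma adjusted p = 0.160). At these heights a step of 1 in pileup is a large part of the value.

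In Ikzf2 1 region was called with Res-shFabp7 only, 129.3 kb into the gene (chr1:69660467-69660628). Pileups were 14, 12 and 9 and folds 5.18, 4.86 and 3.78 in Res-shFabp7 replicates 1 to 3, and no Res-ctrl library had a peak there. The nearest other region was 2203 bases away. It was not called with Res-shFabp7 only when each list was limited to its 82153 strongest peaks, nor at a q of 0.001. The 3 Res-shFabp7 libraries had 29, 37 and 31 Ikzf2 peaks and the Res-ctrl libraries 20, 21 and 32. The share per 1000 peaks, 0.312 ± 0.0363 with Res-shFabp7, stood against 0.275 ± 0.0510 with Res-ctrl (SD over 3 libraries; exact permutation p = 0.4), with Res-ctrl replicate 3 within the Res-shFabp7 range. The difference of 0.0376 was 0.0182 without Res-ctrl replicate 1, 0.0187 without Res-shFabp7 replicate 2 and 0.0664 without Res-ctrl replicate 3. With lists of equal length the counts were 23, 21 and 23 with Res-shFabp7, against 20, 21 and 25 with Res-ctrl, a difference of 0.00406 per 1000 (exact permutation p = 1).

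Ikzf3, which encodes Aiolos, was open at both ends. Its highest region lay 651 bases beyond the high-coordinate end (chr11:98546308-98546874), with pileups of 272, 268 and 276 with Res-shFabp7, against 206, 188 and 337 with Res-ctrl, and 3.49% of common regions were higher. The region at the low-coordinate end (chr11:98464581-98464892) had 147, 165 and 179 with Res-shFabp7 against 122, 121 and 193 with Res-ctrl. At both ends Res-ctrl replicate 3 was the highest library and the normalised log2 difference was near 0 (0.01 ± 0.13 and -0.01 ± 0.14, SE).

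The 18 common regions of Ikzf3 had 9 differences above 0 and 9 below. At 12.9 kb (chr11:98477188-98477899) pileups were 97, 72 and 84 with Res-shFabp7, against 35, 41 and 67 with Res-ctrl, and each Res-shFabp7 library was above each Res-ctrl library. Normalised log2 height was 6.26 ± 0.17 with Res-shFabp7, against 5.67 ± 0.21 with Res-ctrl (SD, n = 3 each), a difference of 0.59 ± 0.16 (SE; limma adjusted p = 0.137). It passed with a mean-variance trend (limma adjusted p = 0.0198), as 4.53% of all regions did, and over the alternatives the adjusted p was 0.0198 to 0.424. At 5.82 kb (chr11:98469903-98471082), the gene's second highest region, pileups were 257, 222 and 228 with Res-shFabp7 against 165, 140 and 224 with Res-ctrl, with a difference of 0.24 ± 0.12 (SE; limma adjusted p = 0.359). The opposite was seen in the lowest common region of the gene, at 41.7 kb (chr11:98506202-98506430), with 13, 15 and 9 with Res-shFabp7, against 18, 11 and 23 with Res-ctrl. There the raw pileups overlapped and the normalised log2 difference was -0.85 ± 0.23 (SE; limma adjusted p = 0.138).

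**Figure D4:**
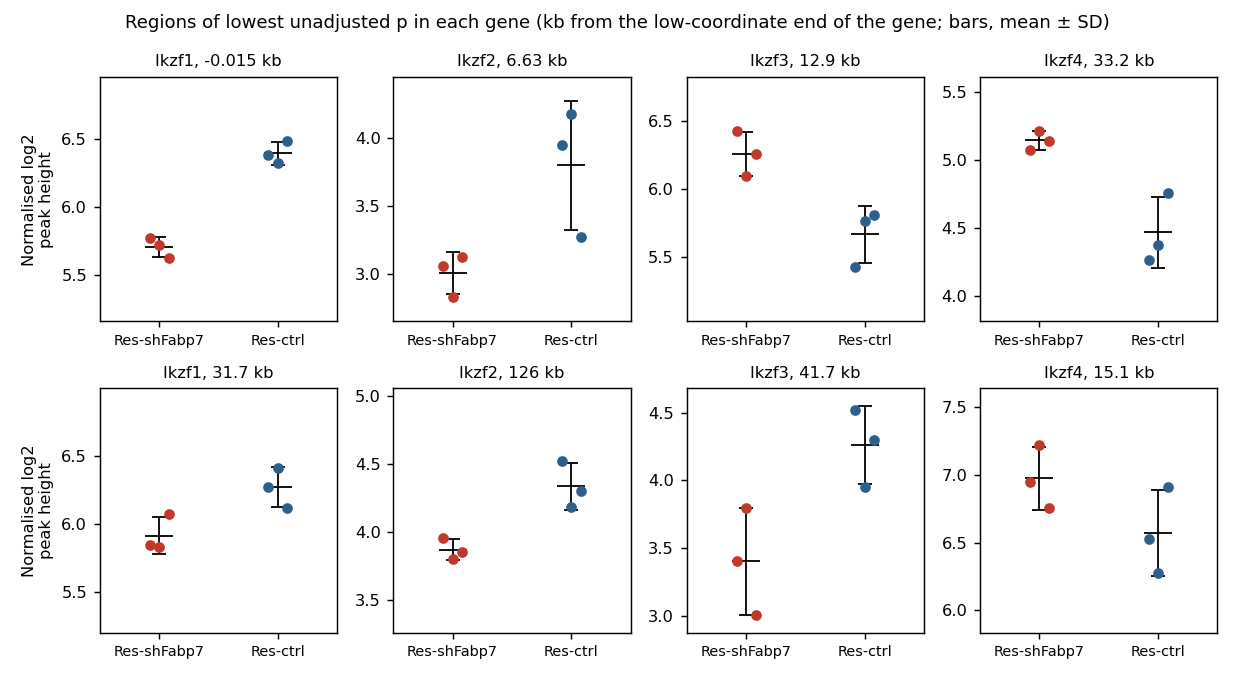
Normalised log2 peak height per library at the 2 regions of lowest unadjusted p in Ikzf1, Ikzf2, Ikzf3 and Ikzf4, titled by distance in kb from the low-coordinate end of the gene, where points are libraries, Res-shFabp7 on the left and Res-ctrl on the right, with mean ± SD (n = 3 each). Panels span equal ranges on the log2 axis, and none of the 8 regions passed limma's adjusted threshold over all 56610 regions.

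Ikzf3 held the family's other region called with Res-shFabp7 only, 29.0 kb into the gene (chr11:98493530-98493705). Pileups were 36, 31 and 37 and folds 3.71, 3.56 and 4.17 in Res-shFabp7 replicates 1 to 3. It lay 146 bases from a region of all 6 libraries (chr11:98492943-98493383), whose pileups were 109, 108 and 87 with Res-shFabp7, against 71, 63 and 83 with Res-ctrl, and joined it where regions within 200 bp were merged. On its other side the next region, 284 bases away, had a peak in Res-ctrl replicate 2. With each list limited to its 82153 strongest peaks it was still called with Res-shFabp7 only, together with a region at 80.6 kb (chr11:98545001-98545195), which had pileups of 58, 51 and 53 with Res-shFabp7, against 38 in Res-ctrl replicate 3. Ikzf3 had 28, 24 and 26 peaks with Res-shFabp7, against 22, 23 and 24 with Res-ctrl, and the shares per 1000 peaks overlapped (difference -0.0115, exact permutation p = 0.6). B cells also express Ikzf3. Of the 10 B cell markers, 2 had at least 3 common regions and so a gene mean. Pax5, the factor of B cell commitment, had a log2 difference of 0.99 ± 0.07 over 3 regions (SE, limma adjusted p = 0.000609 over 6602 genes). Ebf1, also with 3 regions, had 0.07 ± 0.09 (SE, limma adjusted p = 0.706), and Ms4a1 had no peak in any library. The part of B cell chromatin in the Ikzf3 values was not tested.

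In all, 2 of 147 family regions were called with Res-shFabp7 only and 0 with Res-ctrl only. Over all merged regions these shares were 2.28% and 0.155%, and the family's counts were near them. For single regions no test was made, since 3 against 3 libraries cannot go below an exact p of 0.1. With lists of equal length the family counts were 2 of 128 and 0, and the shares over all regions 1.13% and 0.527%. Leaving out Res-ctrl replicate 3 gave 9 family regions with Res-shFabp7 only, where the share over all regions was also higher, at 5.18%. Leaving out Res-shFabp7 replicate 2 or 3 gave 4 each (3.85% and 4.27% of all regions), and leaving out Res-ctrl replicate 1 gave 2 with Res-ctrl only (0.505% of all regions). With Res-ctrl replicate 3 as the only Res-ctrl library, an alternative chosen after the data were seen, 2 family regions were found with Res-shFabp7 only and 8 with Res-ctrl only (5 at Ikzf1, 2 at Ikzf2 and 1 at Ikzf3), against 4.13% and 4.33% of all regions. A Res-ctrl region then needed a peak in 1 library and a Res-shFabp7 region in 3. A further 7 family regions had peaks in all 3 Res-shFabp7 libraries and in 1 Res-ctrl library (4 at Ikzf1 and 1 each at Ikzf2, Ikzf3 and Ikzf4). In 7 of these 7 the Res-ctrl library was replicate 3, whose background pileup of 1.01 lay within the Res-shFabp7 range. Over all regions of this kind (4.21% of merged regions) it was replicate 3 in 68.8%.

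Ikzf4, which encodes Eos, had few regions, and its 3 highest spanned the gene. At 6.37 kb (chr10:128636609-128637485) pileups were 244, 195 and 241 with Res-shFabp7, against 171, 152 and 221 with Res-ctrl, and 6.20% of common regions were higher. At 15.1 kb (chr10:128645454-128646029) they were 136, 155 and 118 with Res-shFabp7 against 78, 59 and 144 with Res-ctrl, with a normalised log2 difference of 0.40 ± 0.20 (SE; limma adjusted p = 0.347). The gene's lowest p was at 33.2 kb (chr10:128663413-128664311), with 40, 40 and 40 with Res-shFabp7, against 15, 15 and 32 with Res-ctrl. Here the 3 Res-shFabp7 libraries had the same pileup, above that of each Res-ctrl library. Normalised log2 height was 5.15 ± 0.070 with Res-shFabp7, against 4.47 ± 0.26 with Res-ctrl (SD, n = 3 each), a difference of 0.68 ± 0.16 (SE; limma adjusted p = 0.115), and the adjusted p was 0.0691 to 0.369 over the alternatives. Ikzf4 had 6, 6 and 9 peaks with Res-shFabp7, against 9, 7 and 8 with Res-ctrl, or 0.0680 ± 0.0189 with Res-shFabp7, against 0.0914 ± 0.0127 with Res-ctrl per 1000 (SD, n = 3 each; exact permutation p = 0.3).

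Ikzf5 had almost no peaks of its own. The rule gave it 5 peaks, 0, 2 and 1 with Res-shFabp7, against 0, 1 and 1 with Res-ctrl. One was a weak peak in Res-shFabp7 replicate 2 inside the gene (chr7:131397658-131397807, pileup 6). The other 4 were small peaks at the edge of a region assigned by its strongest summit to Acadsb, a neighbouring acyl-CoA dehydrogenase gene (chr7:131410038-131410853). That region covered the Ikzf5 start printed above, with its summit 176 bases before it, and had pileups of 197, 193 and 212 with Res-shFabp7, against 188, 129 and 260 with Res-ctrl. The Ikzf5 start was therefore open in all 6 libraries, and the nearest-gene rule gave the summit to the neighbour.

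Averaged over the common regions of a gene, normalised log2 height was 6.10 ± 0.10 with Res-shFabp7, against 5.83 ± 0.18 with Res-ctrl at Ikzf4, 5.82 ± 0.014 (Res-shFabp7) and 5.84 ± 0.039 (Res-ctrl) at Ikzf3, 5.74 ± 0.046 (Res-shFabp7) and 5.84 ± 0.040 (Res-ctrl) at Ikzf1, and 4.29 ± 0.097 (Res-shFabp7) and 4.42 ± 0.070 (Res-ctrl) at Ikzf2 (SD, n = 3 each). The Res-ctrl means of Ikzf4, Ikzf3 and Ikzf1 differed by less than the Res-ctrl SD of Ikzf4. With Res-shFabp7 the mean of Ikzf4 (6.10) was above those of Ikzf3 (5.82) and Ikzf1 (5.74). Ikzf2 was below Ikzf4, Ikzf3 and Ikzf1 in every library. These are averages over 4, 18, 34 and 15 regions. In limma over the 6602 genes with at least 3 such regions, 3.45% passed an adjusted p of 0.05 and no family gene did. The differences were 0.28 ± 0.10 at Ikzf4 (adjusted p = 0.137), -0.02 ± 0.07 at Ikzf3 (adjusted p = 0.877), -0.10 ± 0.07 at Ikzf1 (adjusted p = 0.397) and -0.13 ± 0.08 at Ikzf2 (adjusted p = 0.350; SE in each). Ikzf4 had an unadjusted p of 0.0199, as 23.5% of genes had one under 0.05, and its difference was 0.14 (adjusted p = 0.479) without Res-shFabp7 replicate 1, 0.19 (adjusted p = 0.350) without Res-ctrl replicate 1 and 0.38 (adjusted p = 0.0515) without Res-ctrl replicate 3. At Ikzf2 the difference was -0.07 (adjusted p = 0.684) without Res-shFabp7 replicate 2, -0.05 (adjusted p = 0.804) without Res-ctrl replicate 1 and -0.22 (adjusted p = 0.217) without Res-ctrl replicate 2. At Ikzf1 and Ikzf2 the gene means of the groups did not overlap, which was so for 28.8% of genes.

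Over the 6 libraries gene means had a Pearson r of 0.61 for Ikzf1 and Ikzf2, 0.58 for Ikzf1 and Ikzf3, 0.16 for Ikzf2 and Ikzf3, and those of Ikzf4 with Ikzf1, Ikzf2 and Ikzf3 had an r of -0.66, -0.64 and -0.72. The genes whose 6 means were most like those of Ikzf1 were Gm40363 (r = 0.999) and Hnrnpa0 (r = 0.995), those of Ikzf2 Rflna (r = 0.995) and Hfm1 (r = 0.993), those of Ikzf3 Ppp1r3f (r = 0.988) and Zfp764 (r = 0.987), and those of Ikzf4 Lta (r = 0.996) and Il21r (r = 0.995). Each was the best of 6601 genes over 6 points that share their libraries, so such values describe and do not test.

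Genes of the machinery around Ikaros proteins were described as gene lists. The 18 genes of partner complexes, which include NuRD, Sin3 and CtBP subunits, had 210 regions, of which 98 were in all 6 libraries, 4 with Res-shFabp7 only and 1 with Res-ctrl only, counts near those that the shares over all regions (2.28% and 0.155%) give. The 3 strongest with Res-shFabp7 only were at Smarca4, the BRG1 remodelling ATPase (chr9:21679855-21680136, folds of 6.50, 6.96 and 7.34), Sin3b, a corepressor scaffold (chr8:72722962-72723048, folds of 4.70, 5.07 and 4.90), and Gatad2a, a NuRD subunit (chr8:69944427-69944586, folds of 4.60, 5.07 and 4.73). The region with Res-ctrl only was at Rbbp7, a histone chaperone of NuRD (chrX:162770441-162770605, folds of 4.10, 4.97 and 5.48). Of 12 partner genes in the gene fit 0 passed in either direction, against 3.45% of all genes. An unadjusted p under 0.05 was found in 2 of the 12, against 23.5% of all genes. These were Smarca4 with 0.18 ± 0.07 and Sin3b with -0.26 ± 0.11 (SE, limma adjusted p = 0.160 and 0.182). The median of the 12 partner genes was -0.11, against -0.01 over all genes. The 8 genes of Ikaros turnover, the cereblon ligase and casein kinase 2, had 47 regions with 1 of Res-shFabp7 only, at Csnk2a1, a casein kinase 2 catalytic subunit (chr2:152273736-152273859, folds of 4.44, 4.82 and 5.10), and 0 of Res-ctrl only. Of 3 such genes in the gene fit 0 passed, against 3.45% of all genes. Crbn, which encodes cereblon, had 0.04 ± 0.08 (SE, limma adjusted p = 0.838).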

How the data were processed

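Per the submitters' processing notes, Trim Galore 0.6.5, cutadapt 2.8, Bowtie 1.1.2, MACS2 2.2.7.1 and the build mm10 were used. The authors deposited 1 peak list per library. Per the file headers each peak has a p-value and q-value as −log10, a pileup (coverage signal at the summit) and a fold ratio over local background. Reads were 76-base pairs, per the labels' protocols. Read shift, duplicate treatment and each library's read number were not given in the sources used. Pileup depends on depth.

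Starts, taken to count from 0, are given from 1. Peaks were merged at 1 bp of overlap. The gene of a peak is the nearest of 21887 protein-coding gene bodies (RefSeq GRCm38.p6) to its summit, within 100 kb. Relative depth is the most frequent background, recovered from pileup and fold. Heights were quantile-normalised log2 pileups, the highest peak per region and library. They were tested with limma 3.58.1 in R 4.3.3 with Benjamini-Hochberg adjustment over all regions or genes. The fit was also run on simulated data with the spread shuffled among regions, so a link of spread to height was not checked. Shares per 1000 peaks were compared by two-sided exact permutation. Alternatives changed the q, list length, merging, assignment, scaling, block, depth covariate and libraries.

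Members, lists and the rule for named regions were chosen with earlier results of these data known. The rule takes regions called in 1 group only, regions at gene starts or ends, and per gene the 3 highest and the 2 of lowest p, then the 2 most similar genes. Regions printed beside these were chosen after their values were seen. The reference tables gave a strand for 2 members, so the others are described by their coordinate ends.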

Additional observations from a re-analysis of the deposited data

How the results depend on the processing

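The 2 family regions called with Res-shFabp7 only became 1 at a q of 0.001 and 1 when merged across 200 bp, and stayed at 2 with a q of 0.01, equal lists (both then at Ikzf3), 50% cover, midpoints or a gene distance of 20 kb. With Res-ctrl replicate 3 as the only control, an alternative added after the data were seen, they numbered 2, and those with Res-ctrl only numbered 8 (4.33% of all regions), against 0 in the main comparison. Leaving out 1 library gave 2 to 9 with Res-shFabp7 only and 0 to 2 with Res-ctrl only. Height calls in the family numbered 0 except with a mean-variance trend (2 of 71, with 2565 of 56610 over all regions) and among regions above the median height (1 of 41, with 575 of 28305 over all regions). The cause was not tested. Without each library in turn the family had 0 calls and 8 to 13 regions with an unadjusted p under 0.05 (13.3% to 18% of all regions). The difference in Ikzf3 peaks per 1000, -0.0115, was 0.0243 with equal lists, 0.00121 at a q of 0.001 and -0.0197 to 0.000740 without 1 library. At Ikzf5, with 5 peaks, 0.00211 was 0 with equal lists, -0.000977 at a q of 0.001 and -0.00253 to 0.00692 without 1 library. Same-numbered libraries deviated from their group means with correlations of -0.032, 0.028 and -0.018. Correlations near 0 over all regions cannot exclude a pairing by animal or culture, and the labels state none. With a replicate block the family had 0 height calls and 12 regions with an unadjusted p under 0.05 (16.6% of all regions), and 0 of its genes passed. Low pileups and the shallow Res-ctrl replicates 1 and 2 limit what the absence of a peak can show.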
